A study of Mus musculus with 6 samples.

Results

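The DNA damage response and repair genes of the somatic and germ cells of the fetal ovary were followed in RNA from mouse ovaries taken on embryonic day E15.5 after exposure in utero to panobinostat (PB). Members were the 52 genes of a fixed list of symbols, out of 35974 gene names in the count table. Each member was measured as the sum of the counts of all transcripts that carried its name, and each transcript as its share of that sum. The members fell into 6 groups by their role, which were 12 genes of damage sensing and signalling, 15 of homologous recombination, 5 of the Fanconi pathway, 5 helicases of the RecQ family, 10 of base excision repair and 5 of end joining and mismatch repair.

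The samples were 3 control pools and 3 PB pools of whole ovaries from C57BL/6J fetuses. The dams of the PB pools were given PB, an inhibitor of histone deacetylases, at 5 mg/kg from E6.5 to E15.5, and the dams of the control pools were given the vehicle, DMSO and water. PB was given through the pregnant dam and not to the ovary alone, and no level of the drug in fetal tissues was reported. The sources differ on the schedule, which is daily in the sample annotation and every other day by gavage in the methods of the study, and on the number of ovaries in a pool, which is 4 in the extraction protocol, 6 to 8 in the design text and at least 8 in the methods. The pools held all cells of the ovary, so that fewer cells of a type and less RNA per cell cannot be told apart. The p-values measure the spread between pools.

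The libraries held 97165644 to 125985399 counts, of which the 52 genes took between 0.288% and 0.342%. The labelled tissue was checked by its markers. The 8 markers of pregranulosa cells summed to between 1638 and 1834 CPM (library-scaled counts, with TMM factors), the 8 germ cell markers to between 633 and 1179 CPM, and the 6 markers of Sertoli cells, the supporting cells of the testis, to between 31.7 and 42.7 CPM. Hba-a1, a haemoglobin gene of red blood cells, varied widely within control, at 6535, 9008 and 2064 CPM, and was at 5421, 5528 and 5593 CPM in PB, and its part in the results was not tested.

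DNA breaks are sensed by the kinases ATM and ATR, which act with adaptor proteins such as MDC1 and TP53BP1 and with the ubiquitin ligases RNF8 and RNF168. Breaks are then joined end to end, or copied from an intact duplex by homologous recombination with BRCA1 and BRCA2, while single damaged bases are cut out by the glycosylases of base excision repair. At E15.5 the germ cells of the mouse ovary are in meiotic prophase, in which programmed DNA breaks are made and repaired by recombination, and many repair genes are active there as well as in dividing somatic cells.

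Gene sums were first compared to find whether PB changed the expression of these genes. None of the 52 members was called in either direction by the quasi-likelihood F-test of edgeR, where a call required an FDR (false discovery rate over all genes) of at most 0.05 together with a change of 2-fold or more. DESeq2 also called 0 members. At an unadjusted p under 0.05, 2 members were found by edgeR and 3 by DESeq2. All 52 passed the filter on low counts. Over the 19435 genes tested, the background of calls was 0.0154% with edgeR and 0.0536% with DESeq2, and 4.46% of genes had an unadjusted p under 0.05 in edgeR. The log2 fold change was above 0 for 24 members and below 0 for 28, with a median of -0.01, and the median over all genes tested was 0.00. Its median size without sign was 0.08 for the members and 0.10 for all genes tested.

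The estimates were narrow enough to bound the changes. The 95% interval of the log2 fold change, not adjusted for the number of genes, lay within 2-fold in either direction for all 52 members. The estimate itself was within 0.1 of 0 for 35 members and within 0.2 of 0 for 44. The lowest estimate was that of Recql4, at -0.31, and the highest that of Atr, at 0.34. The 3 PB pools lay above the 3 control pools for 4 members (Rnf168, Brca1, Xrcc5 and Lig4) and below them for 3 (Fancm, Recql4 and Apex1). These are 7 of 52 members, and 10.7% of all genes tested had groups that did not overlap, 5.1% with PB above and 5.61% with PB below.

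**Figure D1:**
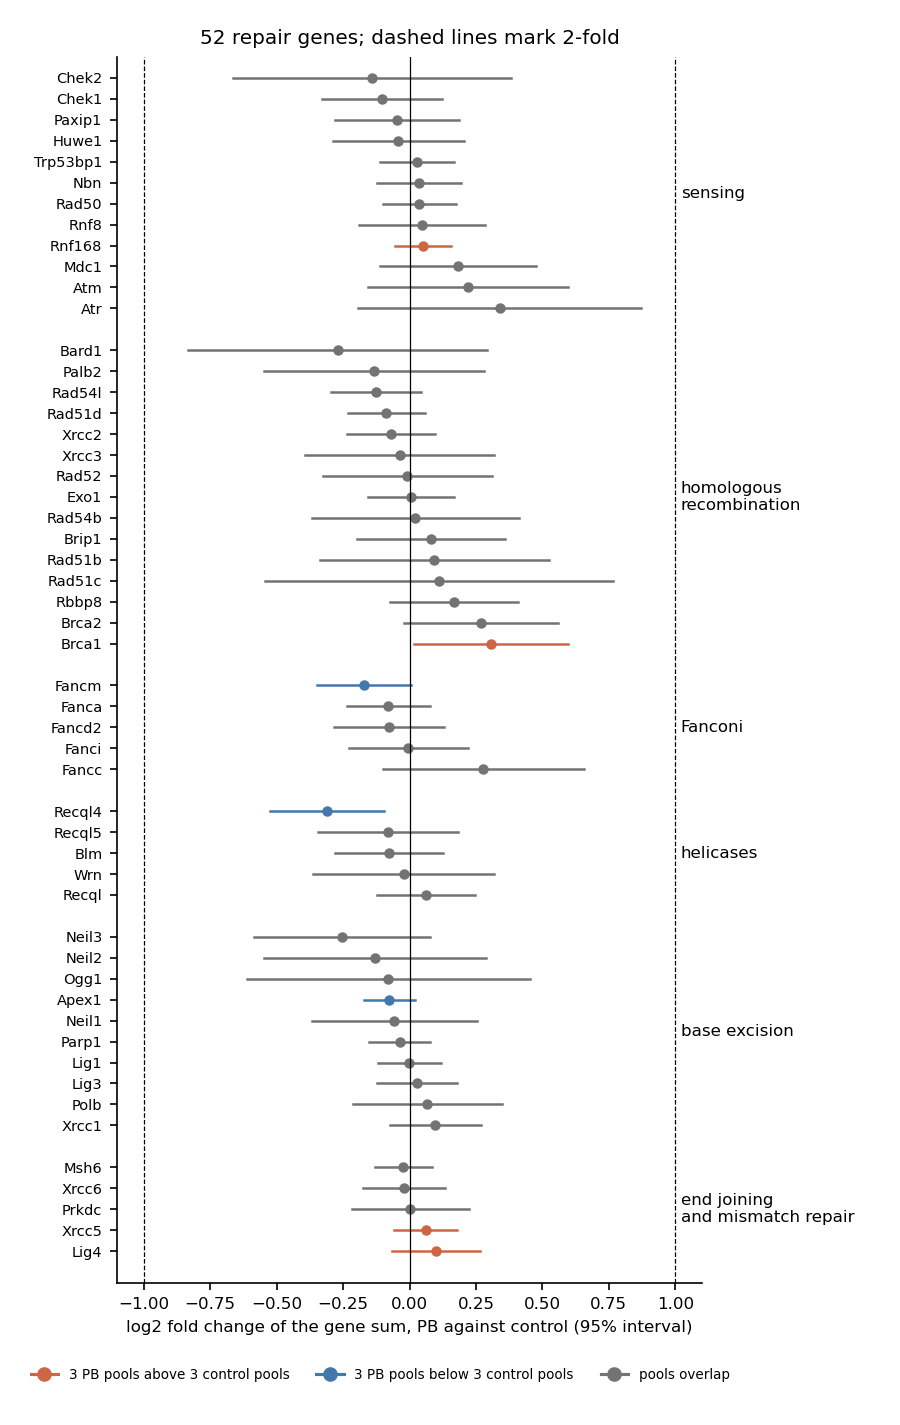
Log2 fold change of the gene sum of each of the 52 genes, PB against control, with its 95% interval from edgeR (3 pools per group), ordered by estimate within each of the 6 groups. Dashed lines mark 2-fold in either direction, and every interval lies between them; orange marks the 4 genes whose PB pools all lay above the control pools, and blue the 3 whose PB pools all lay below.

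The levels of the genes were compared per length, as TPM, in which counts are divided by transcript length and scaled to a common total. The highest levels were in base excision repair. Parp1, which binds broken strands and builds poly-ADP-ribose chains, was at 121 ± 10.1 TPM in control and 127 ± 2.04 in PB (mean ± SD, n = 3 pools, as in all such values here). TPM has no TMM factor, so that its scale can differ between the groups. Parp1 has 1 transcript, and its means in CPM had the opposite order, at 318 in control and 310 in PB. Lig1, the ligase that seals nicks in replication and repair, was at 102 ± 4.82 and 110 ± 10.2 TPM, and Apex1, the nuclease that cuts at sites without a base, at 102 ± 6.39 and 104.1 ± 3.15 TPM. Parp1 was above the other two in every pool, and Lig1 and Apex1 overlapped in level.

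The lowest level was that of Neil2, a DNA glycosylase, at 0.68 ± 0.01 TPM in control and 0.64 ± 0.10 in PB. The median over the 52 genes was 10.6 TPM in control and 11.4 TPM in PB. The sensing genes Huwe1, at 47.6 ± 6.57 TPM in control, and Atr, at 40.6 ± 7.92, overlapped in level. Xrcc6 and Xrcc5, which encode the subunits of the Ku dimer that binds DNA ends, were at 48.1 ± 3.87 and 34.8 ± 2.24 TPM. Prkdc, the kinase that Ku recruits, was lower, at 6.16 ± 0.83 TPM.

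**Figure D2:**
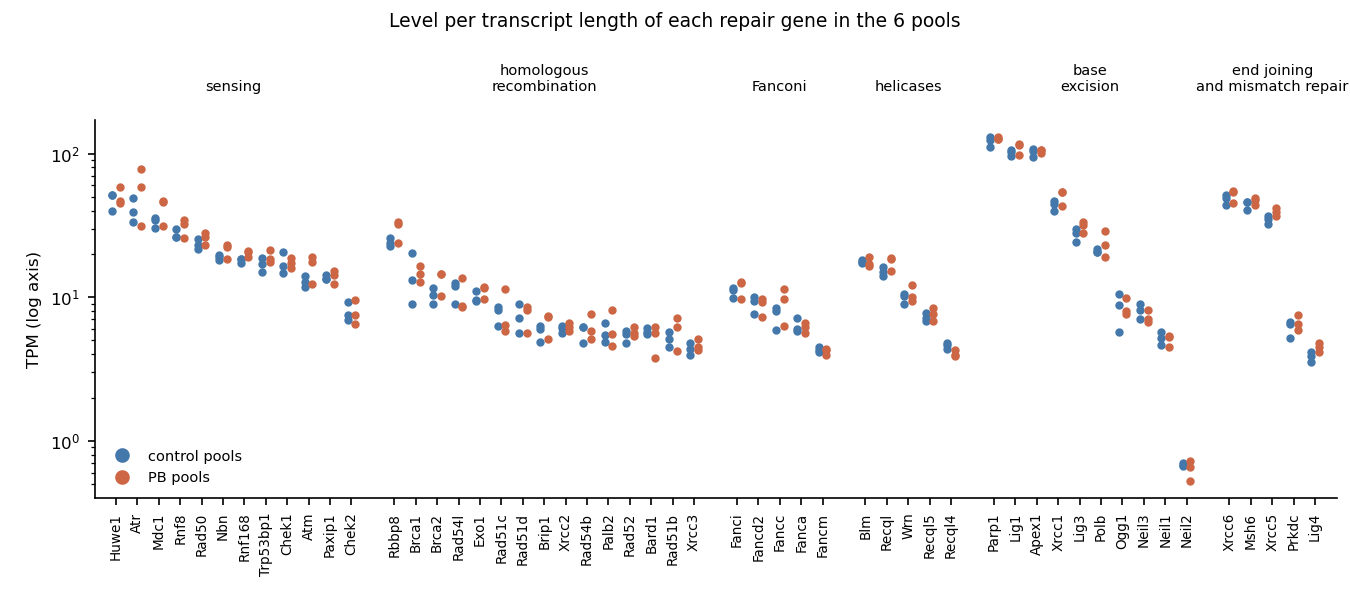
Level of each gene in TPM on a log axis, with 1 point per pool (blue, 3 control pools; orange, 3 PB pools), ordered within the 6 groups. The base excision genes span the full range, from Parp1 at 121 TPM to Neil2 at 0.68 TPM in control, and control and PB points lie together for most genes.

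Among the 12 sensing genes, 8 had a log2 fold change above 0 and 4 below, with a median of 0.04, and 0 were called. Atr (chr9:95857597-95953217, plus strand, in the mm10 coordinates of the deposited annotation), the kinase that responds to single-stranded DNA at stalled forks and unsynapsed chromosomes, was measured at 258, 234 and 248 CPM in control and at 349, 202 and 384 CPM in PB. PB 1 and PB 3 were above all control pools and PB 2 below all of them. Its log2 fold change was 0.34 ± 0.22 (SE, n = 3 per group, edgeR FDR = 0.888), with an interval from -0.19 to 0.87. Chek2, the checkpoint kinase activated by ATM, had the lowest estimate of the group. It was at 10.6, 15.3 and 11.2 CPM in control and 10.4, 14.4 and 8.83 CPM in PB, and the groups overlapped (log2 fold change -0.14 ± 0.22). The pool numbered 2 was the highest of each group. The estimate was -0.36 without PB 2 and turned to 0.04 without control 2 and to 0.00 without PB 3.

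Trp53bp1, an adaptor that protects broken ends from resection, was at 111, 102 and 106 CPM in control and 111, 113 and 102 CPM in PB. Paxip1, a scaffold with BRCT domains that binds phosphorylated proteins at breaks, was at 37.6, 40.5 and 39.2 CPM in control and 37.9, 42.7 and 33.0 CPM in PB. Huwe1, a large ubiquitin ligase, was at 503, 424 and 489 CPM in control and 519.9, 436 and 419 CPM in PB. The groups overlapped for all 3, and their log2 fold changes were 0.03 ± 0.06, -0.05 ± 0.10 and -0.04 ± 0.10. Rnf168, the ligase that spreads the ubiquitin mark at breaks, was at 56.1, 56.1 and 54.3 CPM in control and 57.1, 56.9 and 58.6 CPM in PB, a small step without overlap (0.05 ± 0.04). Chek1, Rnf8, Rad50 and Nbn had estimates between -0.10 and 0.05, with groups that overlapped.

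Some of these sums depend on how transcripts are assigned to a name. In the annotation, 2 assembled transcripts that span Huwe1 carry the name of a microRNA and stand outside its sum, and with them the log2 fold change was 0.02. Restricted to known transcripts it was -0.31 for Huwe1 and 0.46 for Paxip1, most of whose counts lay in assembled transcripts. For Mdc1 it turned from 0.18 to -0.07, for Rad51b from 0.09 to -0.30 and for Ogg1 from -0.08 to 0.05.

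Of the 15 genes of homologous recombination, 8 had an estimate above 0 and 7 below, with a median of 0.01, and 0 were called. Brca1 (chr11:101488761-101552678, minus strand), a ubiquitin ligase subunit that promotes resection of broken ends, had an unadjusted p under 0.05. It was at 40.2, 47.5 and 57.0 CPM in control and at 60.2, 58.6 and 60.4 CPM in PB, so that all PB pools lay above all control pools and the control pools spread more widely. The log2 fold change was 0.31 ± 0.12 (edgeR FDR = 0.888). Per length the groups were close, at 14.2 ± 5.72 TPM in control and 14.6 ± 1.83 in PB, and the log2 fold change was -0.12 when only known transcripts were summed. The transcripts to which its reads were assigned also differed between pools, as described further on with its exons.

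Bard1, the partner of Brca1 in the ligase, had the lowest estimate of the group. It was at 20.3, 21.8 and 22.0 CPM in control and 11.3, 22.7 and 19.1 CPM in PB. PB 1 was low, and PB 2 was the highest of all 6 pools. The log2 fold change of -0.27 ± 0.23 (FDR = 0.888) moved to -0.04 without PB 1. Palb2, which bridges BRCA1 and BRCA2, was at 12.0, 13.3 and 10.7 CPM in control and 11.7, 8.32 and 12.9 CPM in PB, with PB 2 below all other pools, and had a log2 fold change of -0.13 ± 0.17 that turned to 0.03 without PB 2. Brca2, which acts on resected single-stranded DNA in recombination, was at 73.1, 71.5 and 83.0 CPM in control and 98.8, 75.5 and 100.1 CPM in PB. PB 2 fell within the control range, and the log2 fold change was 0.27 ± 0.12 (edgeR FDR = 0.888).

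The other 11 genes of this group, which include Rad51b, Rad51c, Rad51d, Xrcc2 and Xrcc3, the translocases Rad54l and Rad54b, the nuclease Exo1 and the resection factor Rbbp8, had estimates between -0.13 for Rad54l and 0.17 for Rbbp8. Their groups overlapped.

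The 5 Fanconi genes act on crosslinked DNA. Estimates were below 0 for 4 of them and above 0 for 1, with a median of -0.08, and 0 were called. Fancm, the translocase that brings the core complex to the lesion, was at 21.7, 23.2 and 21.8 CPM in control and 19.5, 21.3 and 18.4 CPM in PB. All PB pools lay below all control pools by a small margin, at a log2 fold change of -0.17 ± 0.07 (edgeR FDR = 0.888). Fancc, a subunit of the core complex, was at 17.7, 12.8 and 13.1 CPM in control and 17.98, 15.2 and 19.7 CPM in PB, which overlapped (0.28 ± 0.16). Fanca, Fancd2 and Fanci had estimates between -0.08 and 0.00, with groups that overlapped.

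The 5 RecQ helicases unwind recombination and replication intermediates. Estimates were above 0 for Recql and below 0 for the other 4, with a median of -0.08, and 0 were called. Recql4 (chr15:76703553-76710638, minus strand), which acts at replication origins and in repair, had the lowest p of the 52 members. It was at 12.9, 12.6 and 12.2 CPM in control and 9.64, 11.2 and 9.45 CPM in PB. All PB pools lay below all control pools, and its log2 fold change was -0.31 ± 0.09 (edgeR FDR = 0.888), a change of -19.4%, with an interval from -0.52 to -0.10. Per length it was at 4.63 ± 0.24 TPM in control and 4.03 ± 0.21 in PB.

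Wrn, the helicase and nuclease lost in Werner syndrome, was at 39.0, 49.1 and 42.6 CPM in control and 39.7, 51.5 and 37.5 CPM in PB. The pool numbered 2 was the highest of each group, and the log2 fold change was -0.02 ± 0.14. Recql had the highest estimate of the 5. It was at 31.7, 31.9 and 33.3 CPM in control and 35.7, 30.2 and 35.1 CPM in PB, with PB 2 below every other pool and the others of PB above control (0.06 ± 0.08). Blm and Recql5 both had an estimate of -0.08, with groups that overlapped.

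Among the 10 base excision genes, 3 had an estimate above 0 and 7 below, with a median of -0.05, and 0 were called. Neil3, a glycosylase that acts on single-stranded DNA and crosslinks, had the lowest estimate, with 10.7, 14.7 and 12.0 CPM in control and 11.4, 10.6 and 9.37 CPM in PB. Control 2 and control 3 were above all PB pools and control 1 was not, and the log2 fold change was -0.25 ± 0.14. Xrcc1, the scaffold that holds the ligase Lig3, had the highest, with 64.7, 62.5 and 65.7 CPM in control and 71.7, 62.0 and 72.6 CPM in PB. PB 2 was again the lowest pool (0.10 ± 0.07).

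Apex1 lay at 92.8, 90.8 and 92.9 CPM in control and 86.6, 88.4 and 87.3 CPM in PB. All PB pools were below all control pools, at a log2 fold change of -0.08 ± 0.04. The means in TPM, which has no TMM factor, had the opposite order. Polb, the polymerase that fills the gap after excision, was at 15.7, 18.5 and 16.1 CPM in control and 16.8, 15.6 and 20.2 CPM in PB (0.07 ± 0.12). Neil1, a glycosylase for oxidised bases, was at 6.16, 5.94 and 6.45 CPM in control and 5.99, 6.80 and 5.03 CPM in PB (-0.06 ± 0.13). The groups overlapped for both genes, as they did for Neil2, Ogg1, Parp1, Lig1 and Lig3, whose estimates lay between -0.13 and 0.03.

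Of the 5 genes of end joining and mismatch repair, 3 had an estimate above 0 and 2 below, with a median of 0.00, and 0 were called. Lig4, the ligase of end joining, had the highest, with 10.8, 10.6 and 11.1 CPM in control and 11.3, 11.4 and 12.2 CPM in PB, which did not overlap (0.10 ± 0.07). Msh6, which recognises mismatched bases, had the lowest, with 134, 125 and 128 CPM in control and 125, 125 and 129.8 CPM in PB (-0.02 ± 0.05). Xrcc5 was at 63.7, 63.7 and 65.1 CPM in control and 65.5, 65.1 and 70.2 CPM in PB, without overlap (0.06 ± 0.05). Xrcc6 and Prkdc had estimates of -0.02 and 0.00 and groups that overlapped.

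The PB pools were not alike. PB 2 was the lowest PB pool for 33 of 52 members, against 36.4% of all genes tested, control 2 was the lowest control pool for 25, against 34.6%, and both held for 17, against 17.2%. Atm and Mdc1, chosen here after their values were seen, shared the order of Atr. The same order was found in Rnf8, Nbn, Brip1, Rad51b, Rbbp8, Fanci, Recql, Xrcc1 and Lig1. The share of all genes with this order was not counted, so that the order cannot be read as particular to the members. Atm was at 99.1, 89.7 and 101 CPM in control and 122, 84.9 and 130.4 CPM in PB. Mdc1, the adaptor that amplifies the ATM signal, was at 167, 156 and 166 CPM in control and 202, 149 and 204 CPM in PB. In Atm and Mdc1 alike, PB 1 and PB 3 were above all control pools and PB 2 below all of them.

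The sum of the germ cell markers had the same order, though not every marker did. The sum of Ddx4, Dazl, Dppa3, Mael, Sycp3, Stra8, Hormad1 and Taf7l was 961, 736 and 953 CPM in control and 1096, 633 and 1179 CPM in PB. Of the 8 markers, 5 had PB 1 and PB 3 above and PB 2 below every control pool, and Ddx4, Dppa3 and Stra8 did not. Dppa3 was at 20.1, 11.9 and 21.6 CPM in control and 12.2, 12.5 and 12.8 CPM in PB, with PB 2 not its lowest PB pool. The part of the markers in the levels of the repair genes was not tested. Without PB 2, the log2 fold changes were 0.57 for Atr, 0.39 for Atm, 0.39 for Brca2 and 0.32 for Mdc1. PB 2 was the lowest PB pool of each of these genes, so that a rise without it follows from their choice. Where PB 2 was the highest PB pool, estimates fell without it, to -0.36 for Chek2, -0.49 for Bard1 and -0.39 for Recql4. Without both pools numbered 2, an alternative chosen after seeing the data, those of Atr, Atm, Brca2 and Mdc1 were 0.54, 0.34, 0.35 and 0.29. No member was called in either case.

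**Figure D3:**
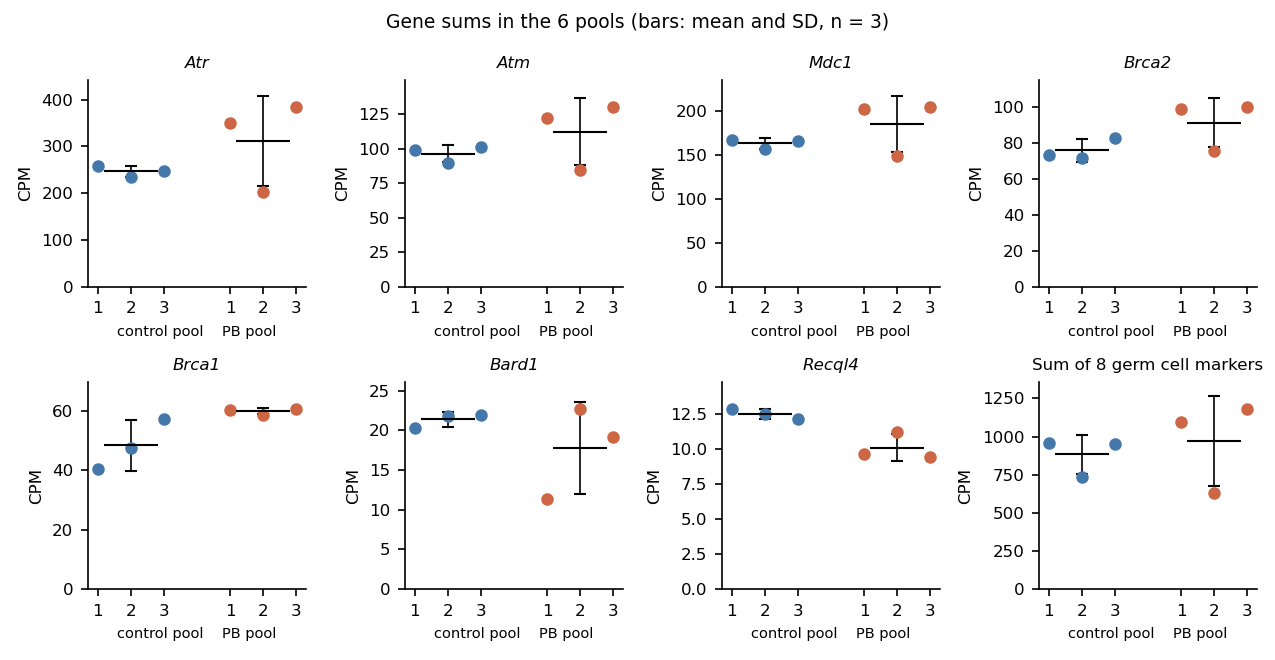
CPM of 7 gene sums and of the summed germ cell markers in each of the 3 control pools (blue) and 3 PB pools (orange), with the mean and SD of each group in black. PB 2 is the lowest PB pool for Atr, Atm, Mdc1, Brca2, Brca1 and the germ cell markers and the highest for Bard1 and Recql4; the germ cell sum in PB 2 is 633 CPM and in PB 3 1179 CPM.

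Related repair genes outside the 52 gave a similar picture. Of 99 such genes on 7 lists, 95 were tested, 0 were called in either direction, 41 had an estimate above 0 and 54 below, and the median was -0.01. At an unadjusted p under 0.05 there were 5 (4 lower and 1 higher), against 4.46% of all genes. Over the 95 genes, 6 (6.32%) lay lower in all PB pools than in all control pools, against 5.61% of all genes tested, and 3 (3.16%) lay higher, against 5.1%. Of the 6, 4 were on the list of 16 tested genes of homologous recombination, the highest count among the 7 lists. These 4 were Rad51ap1, Dna2, Tonsl and Eme1, and both the list and the genes were singled out after their values were seen. Rad51ap1, a gene of homologous recombination, was at 17.1, 18.4 and 17.5 CPM in control and 12.6, 15.7 and 10.4 CPM in PB, a log2 fold change of -0.45. The 8 proliferation markers summed to between 1626 and 1912 CPM in control and between 1562 and 1784 CPM in PB.

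The transcripts of the same genes varied far more than the sums. The members had 354 transcripts, of which 333 matched a RefSeq transcript, 21 were assembled from the reads and 53 had 0 counts in every pool. Of the 207 that passed the filter, edgeR called 1, a transcript of Paxip1 that was higher in PB. The background was 0.0332% of 51227 transcripts. At an unadjusted p under 0.05 there were 14 (6.76%), against 3.56% of all transcripts. DESeq2 called 13 of the 245 member transcripts that it tested, 8 higher and 5 lower, against 1.84% of all transcripts tested. The 13 belonged to 10 genes, which are those that the study named on these same libraries. Counts were also simulated with changes in a small share of transcripts. DESeq2 then made more false than true calls, and edgeR missed most of the changed transcripts. The ratio of false to true calls depends on the share changed, so that it cannot tell how many of the 13 calls are false. The simulated counts were also drawn for each transcript on its own, without the division of the reads of a gene over its transcripts. The median size of the log2 fold change was 0.60 for the member transcripts and 0.33 for all transcripts. The members were chosen with earlier results of these data known. None of these contrasts with all transcripts is therefore independent evidence.

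A transcript that led its gene in 1 pool often did not lead in another. Of the 45 members with at least 2 transcripts with counts, 18 (40.0%) had the same leading transcript in all 6 pools, against 55.9% of all such genes. With 2 to 9 transcripts with counts the shares were 46.2% for members and 58.7% for all genes. The coefficient of biological variation was 98.4% for transcripts and 20.9% for gene sums. StringTie divides the reads of a gene over its transcripts, and the part of this division in each shift was not tested.

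The transcript called by edgeR was MSTRG.13658.2, an assembled transcript of Paxip1. It had 223, 256 and 205 counts in control and 2227, 2757 and 2679 in PB. It took 6.04%, 5.42% and 5.56% of the counts of Paxip1 in control and 59.3%, 63.2% and 69.9% in PB. The PB pools were all far above the control pools, and the transcript was called by edgeR (log2 fold change 3.45 ± 0.14, FDR = 0.0133) and by DESeq2. The call by edgeR needed all 6 pools. When any pool was left out, the log2 fold change stayed between 3.37 and 3.501 and the FDR rose to between 0.0582 and 0.119, and without both pools numbered 2 the FDR was 0.202.

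The other main transcript, MSTRG.13658.3, had its higher counts in control. It had 2886, 3870 and 2918 counts in control and 615, 856 and 348 in PB. Its share was 79.7% ± 1.96 in control and 15.02% ± 5.40 in PB, without overlap, while the sum over Paxip1 overlapped between groups as given above. It was not called by edgeR (-2.41 ± 0.40, FDR = 0.367) and was called by DESeq2 (FDR = 4.77e-05).

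The transcripts differ inside the 5′ part of the gene, on the minus strand of chromosome 5 (coordinates of mm10, which is GRCm38). MSTRG.13658.2 holds an exon of 64 bases at chr5:27781422-27781485, and the exon upstream of it has 44 bases (chr5:27783730-27783773). Both are coding in the GENCODE transcript Paxip1-201. MSTRG.13658.3 skips the exon of 64 bases, whose length is not a multiple of 3, and its upstream exon runs on to 93 bases (chr5:27783681-27783773). The form of 93 bases is found in GENCODE in Paxip1-204, which is annotated as subject to nonsense-mediated decay and in which the added part reaches a stop codon. Paxip1-204 also holds the exon of 64 bases, so that it does not match MSTRG.13658.3. Whether MSTRG.13658.3 is subject to decay was not tested. The sequences are shown because they are what tells the transcripts of control and PB pools apart, read 5′ to 3′ from the GENCODE transcripts. In the first, capitals mark the whole exon that one transcript lacks. The second starts at the first base of the upstream exon (chr5:27783711-27783773), and capitals mark the bases past the end of the form of 44 bases, up to and with the TAA stop codon of Paxip1-204.
Paxip1, exon of 64 bases: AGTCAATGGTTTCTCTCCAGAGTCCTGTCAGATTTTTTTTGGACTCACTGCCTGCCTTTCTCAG
Paxip1, longer upstream exon up to its stop codon: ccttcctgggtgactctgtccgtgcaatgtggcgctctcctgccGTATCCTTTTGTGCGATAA

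Summed over every transcript with the exon of 64 bases, of which there were 5, the exon was held by 21.8%, 17.9% and 20.9% of the counts of Paxip1 in control and by 83.6%, 80.4% and 90.9% in PB. The upstream exon of 93 bases was held by 78.1%, 81.9% and 79.1% in control and by 16.4%, 19.6% and 9.07% in PB. Neither exon overlapped between the groups. Known transcripts with the exon of 64 bases differed in direction. NM_018878.3 had 102, 52 and 93 counts in control and 9, 17 and 12 in PB, and XM_006535758.3 had 477, 539 and 471 in control and 888, 729 and 783 in PB.

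**Figure D4:**
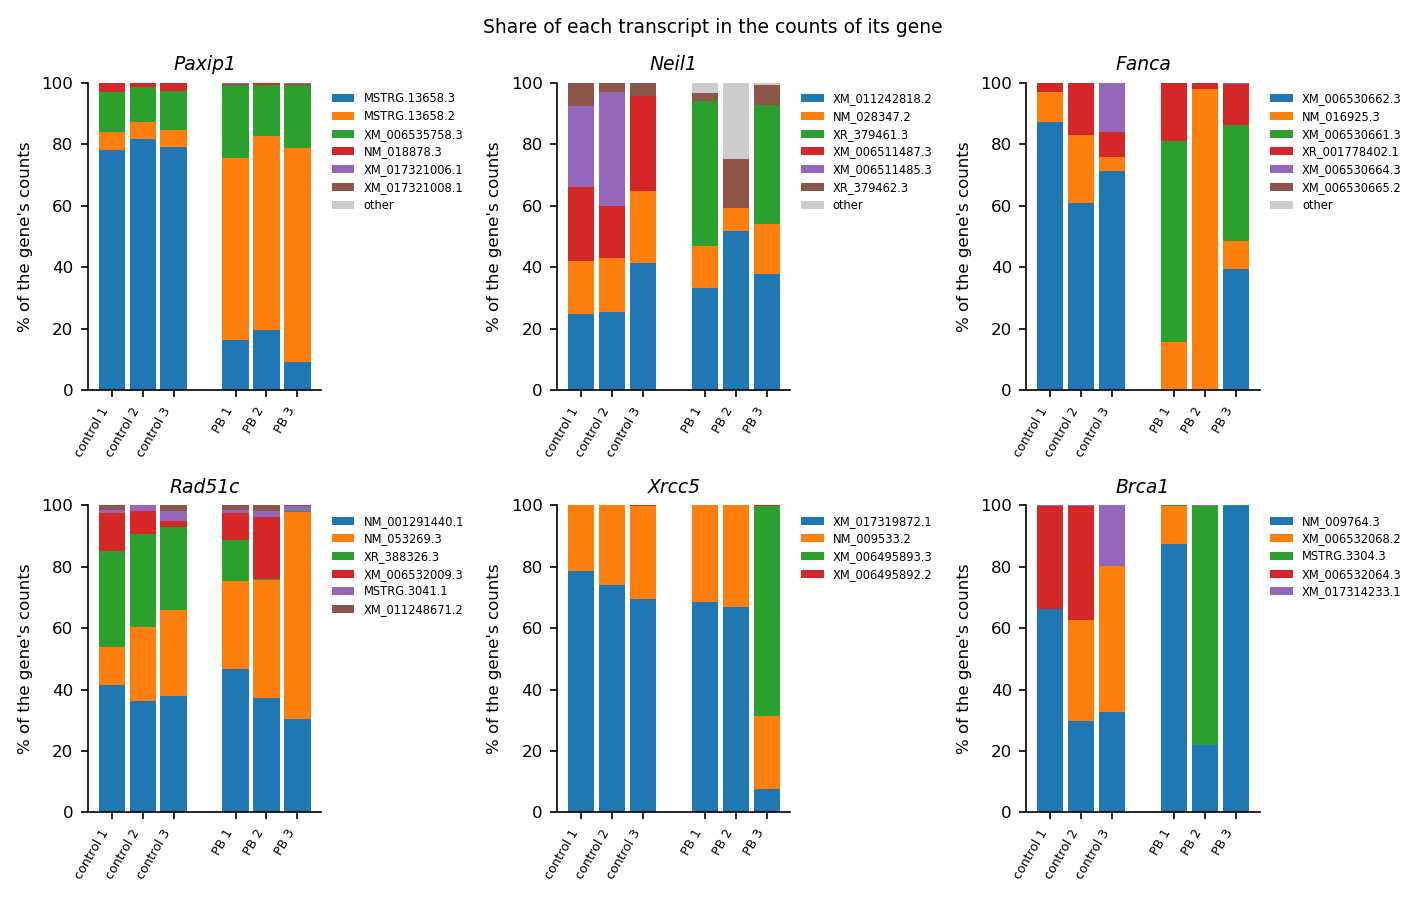
Share of each transcript in the counts of its gene, in percent, for 6 genes in the 3 control and 3 PB pools; the 6 transcripts with the most counts are coloured and any others are grey. For Paxip1 the colours change between groups in all pools, whereas for Fanca, Rad51c, Xrcc5 and Brca1 1 or more pools stand apart from the rest of their group.

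Of the 111 tested transcripts with at least 10% of the counts of their gene, 15 had shares that did not overlap between groups, and 7, from 5 genes, also differed by at least 20 percentage points in mean share. Over all genes, 7.32% and 2.94% of such transcripts did. Apart from the pair of Paxip1, they belonged to Neil1, Fanca, Rad51c and Xrcc5. Shares within a gene are not independent of each other, and none of these 5 transcripts was called by edgeR.

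In Neil1, XM_006511487.3 had 145, 117 and 187 counts in control and 0 in each PB pool. It took 24.0%, 16.9% and 30.8% of Neil1 in control. A count of 0 allows up to 3 counts, and against that floor per pool the assigned counts were at least 52.1-fold lower in PB. This bound covers counting error only and not the division of reads over the transcripts of Neil1. It was called by DESeq2 (FDR = 4.88e-11) and not by edgeR (FDR = 0.242). It lacks an exon of 120 bases at chr9:57145098-57145217 on the minus strand, which is coding in 3 GENCODE transcripts of Neil1 and a multiple of 3 in length. All other transcripts of Neil1 with counts hold this exon, so that it was present in 76.0%, 83.1% and 69.2% of counts in control and in 100% in PB. XM_006511486.2, which DESeq2 called (FDR = 0.0324), had 0, 1 and 0 counts in control and 19, 172 and 3 in PB. Most of its counts were in PB 2.
Neil1, exon of 120 bases (capitals, absent from XM_006511487.3): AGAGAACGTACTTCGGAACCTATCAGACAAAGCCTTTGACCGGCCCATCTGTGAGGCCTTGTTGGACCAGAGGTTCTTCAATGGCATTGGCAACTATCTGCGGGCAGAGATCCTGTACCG

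In Fanca, a subunit gene of the core complex, XM_006530662.3 had 1542, 1375 and 1306 counts in control and 0, 0 and 861 in PB. Its share was 73.2% ± 13.2 in control and 13.2% ± 22.8 in PB, and PB 3 stood apart from the other PB pools. The edgeR test did not call it (FDR = 1.000). It lacks a coding exon of 96 bases at chr8:123313021-123313116 on the minus strand. Transcripts with this exon held 12.8%, 38.9% and 28.7% of Fanca in control and 100%, 100% and 60.5% in PB. A second exon, of 110 bases at chr8:123318062-123318171, was held by 100% of counts in all control pools and in PB 2, and by 34.6% in PB 1 and 62.1% in PB 3. The 2 exons are shown because each is present in NM_016925.3 and missing from transcripts that held much of Fanca in some pools.
Fanca, exon of 96 bases (capitals, absent from XM_006530662.3): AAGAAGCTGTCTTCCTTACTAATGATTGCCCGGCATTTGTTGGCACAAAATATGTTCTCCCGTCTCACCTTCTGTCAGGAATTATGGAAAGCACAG
Fanca, exon of 110 bases (capitals, absent from XM_006530661.3): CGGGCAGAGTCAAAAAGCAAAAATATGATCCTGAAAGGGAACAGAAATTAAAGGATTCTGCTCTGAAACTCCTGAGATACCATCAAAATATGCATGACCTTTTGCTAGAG

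In Rad51c, XR_388326.3 had 392, 367 and 297 counts in control and 133, 2 and 7 in PB. Its share was 29.5% ± 2.13 in control and 4.68% ± 7.63 in PB. It carries an exon of 80 bases (chr11:87388248-87388327, minus strand) that NM_053269.3 lacks. NM_053269.3 had 154, 293 and 307 counts in control and 280, 357 and 1448 in PB, and its mean share was 21.5% in control and 44.7% in PB, where PB 3 was the highest. In Xrcc5, XM_017319872.1 took 78.5%, 73.9% and 69.3% of counts in control and 68.4%, 66.8% and 7.61% in PB. PB 3 stood apart, where XM_006495893.3 had 5587 counts against 0 to 2 in the other pools.

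The transcripts of Brca1 differed from pool to pool in both groups. XM_006532064.3, in which the large coding exon is split by an internal gap, had 1324, 2058 and 0 counts in control and 0, 1 and 1 in PB. It was called by DESeq2 (FDR = 0.00434) and did not pass the filter of edgeR. XM_006532068.2, which skips that exon, had 0, 1815 and 2559 counts in control and 752, 0 and 0 in PB. The assembled MSTRG.3304.3 had 4662 counts in PB 2 and 0 to 6 in every other pool, and NM_009764.3 had 2620, 1652 and 1751 in control and 5207, 1305 and 7018 in PB. The uninterrupted exon, of 3315 bases at chr11:101523325-101526639 (minus strand, coding in GENCODE Brca1-201), was held by 66.5%, 30.1% and 52.3% of counts in control and by 87.4%, 99.98% and 99.99% in PB. The groups did not overlap for this uninterrupted form, and the transcripts without it differed among the control pools. XM_006532064.3 was counted as without it, though its 2 pieces hold 1086 and 2094 bases of the same stretch. The counts of XM_006532068.2, which skips the whole exon, overlapped between the groups.

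**Figure D5:**
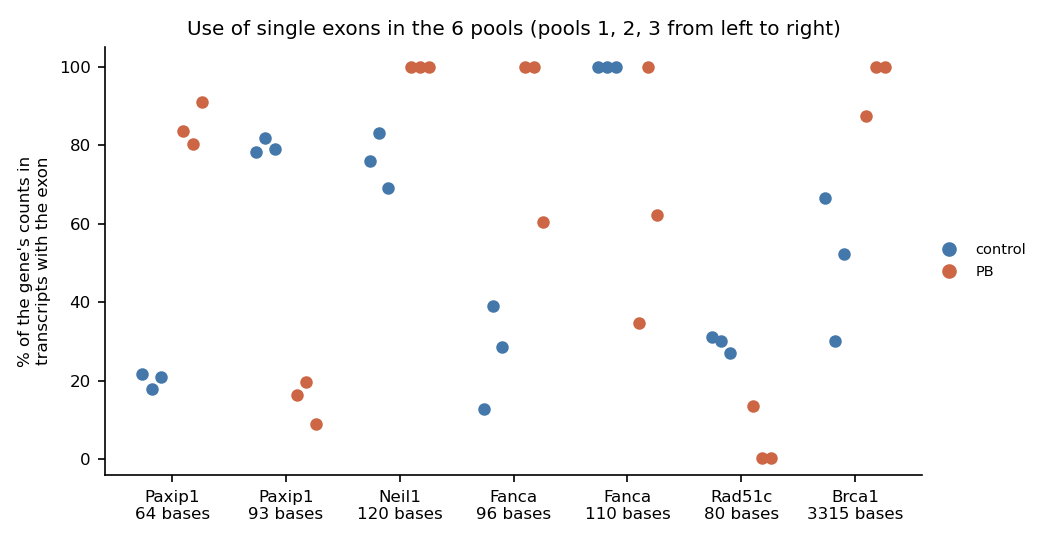
Percent of the counts of a gene that lie in transcripts with a given exon, for 7 exons in the 3 control pools (blue) and 3 PB pools (orange). The exon of 64 bases of Paxip1 is held by 17.9% to 21.8% of counts in control and 80.4% to 90.9% in PB. The groups overlap for the exon of 110 bases of Fanca. They also overlap for exons of Atr, Fancm, Xrcc5 and Brca1 that were compared and are not shown. Most of the 7 come from transcripts chosen because their shares did not overlap, so that the number without overlap follows from the choice.

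In Polb, XM_006509029.2, called by DESeq2 (FDR = 0.0237), had 9, 4 and 7 counts in control and 651, 4 and 220 in PB, with PB 2 no higher than control. The remaining transcripts that DESeq2 called each held under 5% of their gene, and belonged to Chek2, Trp53bp1, Huwe1, Palb2, Wrn and Recql, with 1 more of Paxip1. The genes with such calls were named in the study from the same libraries, so that these calls are not independent evidence. The main transcripts of these genes differed between pools of the same group. NM_013735.4 of Trp53bp1 took 99.2%, 76.0% and 15.9% of counts in control and 12.8%, 93.2% and 3.70% in PB. NM_001081238.2 of Palb2 took 3.15%, 90.4% and 7.31% in control and 17.4%, 5.53% and 9.57% in PB. For Palb2 the range within control covered all PB pools. For Trp53bp1 it covered PB 2 alone, and PB 1 and PB 3 were lower.

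Wrn and Chek2 kept a leading transcript. NM_011721.4 of Wrn took 57.6%, 66.4% and 70.6% of counts in control and 72.0%, 79.99% and 89.7% in PB, which did not overlap, and NM_016681.3 of Chek2 took 75.0%, 74.4% and 71.1% in control and 64.3%, 81.4% and 66.3% in PB, which did. The leading transcripts of control and PB pools had none in common in Paxip1 and Fancc alone, 2 of 45 members (4.44%) against 1.58% of all such genes. In Fancc, with 19 transcripts with counts, the leader differed between pools of the same group as well.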

How the data were processed

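Per the labels, polyA RNA of each pool was sequenced with a strand-specific kit. Per the submitters' processing notes, reads were aligned to mm10 with HISAT2 2.1.0 and transcripts were assembled with StringTie 1.3.5. The authors deposited a matrix of unnormalized counts for each transcript, made with prepDE from read coverage. Their table of DESeq2 1.30.0 results gave the gene names. Its columns of fold changes and p-values, and 6 columns of normalized values per pool, were not used. Of 114412 transcripts, 1490 had no gene name (3.05% to 4.49% of counts) and entered no gene sum, and 3 had no entry in that table.

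The 3 control and 3 PB pools were grouped by sample title. The tests used edgeR 4.0.16 under R 4.3.3 (TMM, filterByExpr set to at least 10 counts and 15 in total, quasi-likelihood F-test, Benjamini-Hochberg adjustment over every gene or transcript tested). A call required an FDR of at most 0.05 and a change of 2-fold or more. The standard error was the log2 fold change divided by the square root of F, and 95% intervals used the degrees of freedom of the fit. DESeq2 1.42.0, run with default settings, was the alternative test. TPM used the exonic lengths of the deposited annotation. A count of 0 allows up to 3 counts, which is between 0.0257 and 0.0319 CPM for gene sums. Such floors cover counting error only. Exons were compared in the deposited annotation, and sequences and coding status were read from GENCODE M21 (GRCm38). The tests were checked on simulated counts with known changes. Both tools recovered nearly all changed genes, which were simulated only above a minimum mean count and at a fold above the 2-fold of a call. Smaller changes, such as those estimated for the members, were not simulated. Among transcripts, of which a small share was changed, edgeR recovered none at the smaller fold and a minority at the larger, with few false calls. The false calls of DESeq2 outnumbered its true ones at both folds, a ratio that depends on the share changed.

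The members and all gene lists were chosen with earlier results of these data known. Genes with an unadjusted p under 0.05, the highest and lowest estimate of each of the 6 groups, and Brca1, Wrn, Chek2, Huwe1, Neil1, Palb2, Paxip1, Polb, Recql and Trp53bp1, which the study named on these samples, are given by pool. So are transcripts called by edgeR, those with at least 10% of their gene whose shares did not overlap and differed by at least 20 points, and those called by DESeq2 with at least 5% of their gene. Alternatives were other normalization, filters, thresholds, a replicate block, each pool left out, known transcripts only and grouping by StringTie locus.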

Additional observations from a re-analysis of the deposited data

How the results depend on the processing

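The count of 0 member genes called held under every alternative run, including DESeq2, an FDR of at most 0.1 and no minimum fold change. For transcripts, the 1 call of edgeR became 13 with DESeq2, 0 to 0 when each pool was left out in turn, and 0 without both pools numbered 2, which was chosen after seeing the data. It was kept at 1 under the other normalization, both filters and both thresholds. With the replicate number as a block, 0 transcripts were called (FDR of the Paxip1 transcript = 0.806), 0 genes were called, and 4 members had an unadjusted p under 0.05. The numbers were not taken to pair the pools, since deviations of pools with the same number correlated at 0.10, 0.22 and 0.04, and control 1 correlated better with PB 3 (0.15). The cause of these differences was not tested. Of the 52 estimates, 26 kept their sign whichever pool was left out, and 5 changed it with known transcripts only.

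Over all genes, 3 were called by edgeR and 11 by DESeq2, and over all transcripts 17 and 1169. With 3 pools per group, intervals of gene sums reached as low as -0.83 (Bard1) and as high as 0.87 (Atr) on the log2 scale. Counts of transcripts are estimates of how reads divide over a gene, and their error was not measured.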
